A study of Mus musculus with 4 samples.

Results

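Type IV collagen chains were examined in mouse podocytes of the MPC5 line, with and without IL-12. The members are the genes Col4a1, Col4a2, Col4a3, Col4a4, Col4a5 and Col4a6, taken by gene name, which are 6 of the 54532 genes in the deposited table. MPC5 is a conditionally immortalized podocyte line, so every library represents a single line in culture and not a glomerulus. The IL-12 treatment group received 400 ng/ml of the cytokine and was collected after 6 h, whereas the control group received saline, with 2 libraries in each group. The sources used here do not state if replicate libraries derive from separate cultures, so the p-values measure only the spread between these libraries, which may be technical.

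Type IV collagen is the sheet-forming collagen of basement membranes. Its chains fold into trimers (protomers) that join end to end through a globular C-terminal domain, the NC1 domain, and side to side through their N-terminal ends. The α1 and α2 chains, encoded by Col4a1 and Col4a2, form the network found in nearly every basement membrane. The α3, α4 and α5 chains, encoded by Col4a3, Col4a4 and Col4a5, form the main network of the mature glomerular basement membrane and are made by podocytes, and mutations in these genes cause Alport syndrome. The α5 and α6 chains form a further network, found in Bowman's capsule and in smooth muscle and skin.

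The 6 genes lie as 3 head-to-head pairs, in which the partners are transcribed away from each other on opposite strands. Coordinates are those of the deposited table, which match GRCm38. Col4a1 (ENSMUSG00000031502) lies at chr8:11198423-11312826 on the minus strand, and Col4a2 (ENSMUSG00000031503) at chr8:11312805-11449287 on the plus strand. Col4a4 (ENSMUSG00000067158) lies at chr1:82448423-82586849 on the minus strand, and Col4a3 (ENSMUSG00000079465) at chr1:82586921-82722059 on the plus strand. Col4a6 (ENSMUSG00000031273) lies at chrX:141165403-141474076 on the minus strand, and Col4a5 (ENSMUSG00000031274) at chrX:141475385-141689234 on the plus strand. The first exons of Col4a1 and Col4a2 overlap by 22 bases, 71 bases separate the starts of Col4a4 and Col4a3, and 1308 bases separate those of Col4a6 and Col4a5.

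The sequence around the starts is shown because the partners of each pair start there in opposite directions. The Col4a1 and Col4a2 starts and the Col4a4 and Col4a3 starts each lie within one window, whereas the Col4a5 and Col4a6 windows do not overlap. The windows come from the RefSeq table for GRCm38.p6 and run from 250 bases before to 50 bases after the start, 5′ to 3′ on the strand of the named gene. RefSeq windows were found for 5 of the 6 chains, all but Col4a3, and the Col4a4 window reaches past the Col4a3 start. In the first window, at chr1:82586800-82587099 on the minus strand, the capitals mark the 71 bases between the Col4a3 and Col4a4 starts. In the second, at chr8:11312777-11313076 on the minus strand, they mark the 22 bases shared by the first exons of Col4a1 and Col4a2. In the third, at chrX:141475169-141475468 on the plus strand, and the fourth, at chrX:141474027-141474326 on the minus strand, they mark GC boxes and CCAAT boxes on either strand. The Col4a5 window is set on a RefSeq start 34 bases from the deposited one.
Col4a4: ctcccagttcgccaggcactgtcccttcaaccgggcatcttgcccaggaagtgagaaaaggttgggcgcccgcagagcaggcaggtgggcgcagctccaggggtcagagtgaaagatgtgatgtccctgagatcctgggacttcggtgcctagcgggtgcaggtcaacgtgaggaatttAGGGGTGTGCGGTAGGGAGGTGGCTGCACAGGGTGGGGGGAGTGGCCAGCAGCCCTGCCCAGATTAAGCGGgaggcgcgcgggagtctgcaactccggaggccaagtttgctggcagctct
Col4a1: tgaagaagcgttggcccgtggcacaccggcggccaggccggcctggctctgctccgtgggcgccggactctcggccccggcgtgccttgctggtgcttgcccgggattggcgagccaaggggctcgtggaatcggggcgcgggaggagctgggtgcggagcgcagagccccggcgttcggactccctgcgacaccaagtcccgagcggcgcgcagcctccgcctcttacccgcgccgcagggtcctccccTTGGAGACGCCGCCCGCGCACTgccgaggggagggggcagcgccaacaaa
Col4a5: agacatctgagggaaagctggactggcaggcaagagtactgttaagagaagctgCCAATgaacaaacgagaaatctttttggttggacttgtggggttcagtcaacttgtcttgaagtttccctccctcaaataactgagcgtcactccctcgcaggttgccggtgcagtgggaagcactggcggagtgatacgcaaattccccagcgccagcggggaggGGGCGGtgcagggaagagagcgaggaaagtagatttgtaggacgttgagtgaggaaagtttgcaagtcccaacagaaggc
Col4a6: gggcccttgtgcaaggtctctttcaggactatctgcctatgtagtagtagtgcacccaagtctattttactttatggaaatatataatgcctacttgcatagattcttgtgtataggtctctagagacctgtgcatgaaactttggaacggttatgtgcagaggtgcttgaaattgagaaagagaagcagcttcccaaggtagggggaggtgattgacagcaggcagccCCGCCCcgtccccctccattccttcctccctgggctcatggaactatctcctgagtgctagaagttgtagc

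The windows differed in base composition. GC content was 74.0% in the Col4a1 window, 73.7% in the Col4a2 window, 63.3% in the Col4a4 window, 52.7% in the Col4a5 window and 48.3% in the Col4a6 window, beside a median of 52.7% over all 32817 promoters in the table. The observed-over-expected ratio of CpG dinucleotides was 0.9 for Col4a1, 0.82 for Col4a2, 0.49 for Col4a4, 0.56 for Col4a5 and 0.17 for Col4a6, beside a median of 0.38. The GC box GGGCGG, on either strand, occurred 1 time in the Col4a1 window, 3 times in that of Col4a2, 1 time each in those of Col4a5 and Col4a6 and 0 times in that of Col4a4, and 35.6% of all promoters held it. The CCAAT box occurred 1 time each in the Col4a1, Col4a2 and Col4a5 windows, and in 37.4% of all promoters. The Col4a1 and Col4a2 windows overlap, so a match can be counted in both. None of the 5 windows held TATAAA, found in 13.6% of all promoters, the AP-1 motif TGANTCA, found in 7.8%, or the SMAD motif CAGACA, found in 21%. The TEAD motif CATTCC occurred only in the Col4a6 window, 1 time, and in 14.7% of all promoters. These matches are descriptions of the letters and were not tested against the response.

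The proteins fall into an odd-numbered and an even-numbered family that cuts across the genomic pairs. Over the last 230 residues, which hold the NC1 domain, identity was 71.4% to 82.2% among the α1, α3 and α5 chains and 67.5% to 73.7% among the α2, α4 and α6 chains. It was 54.5% to 62.1% between families. Head-to-head partners belong to different families, with identities of 62.1% for Col4a1 and Col4a2, 54.5% for Col4a3 and Col4a4 and 61.2% for Col4a5 and Col4a6. The chains have 1669 to 1707 residues. In the 15 pairwise comparisons of their transcripts no stretch of 50 bases was shared. Other annotated genes that overlap the members had few counts. Over the 4 libraries, Gm15418 and Gm44716 at Col4a1 had 22 and 1 counts against its 54920, Gm15419 at Col4a2 had 0 against 43460, and C430014B12Rik and n-R5s213 at Col4a3 had 25 and 0 against 960. Gm15268 and Gm15282 at Col4a5 had 54 and 2 counts against 63291, and Gm15077, Gm15078 and Gm15079 at Col4a6 had 0 against 346. No gene overlapped Col4a4. Whether strand was used in counting is not given in the sources used here.

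Library totals ran from 18355379 to 20098012 counts. CPM are counts per 1000000 counts of the library, scaled by the TMM factors. The floor of 3 counts, the smallest number taken as detectable, corresponded to 0.149 to 0.163 per 1000000 counts before that scaling. Intervals and this floor cover counting error and, for the fitted changes, the spread between libraries. Libraries of a group differed more than sampling noise allows (chi-square divided by its degrees of freedom 2.2 for the controls and 2.52 for IL-12, against 17.9 to 21.6 between groups), so no pair was treated as 1 library deposited again. The label "podocyte" was checked against 14 markers, of which 8 reached 1 CPM. Synpo (synaptopodin), Podxl (podocalyxin), Actn4, Cd2ap and Nes (nestin) were expressed, whereas Nphs1, which encodes the slit-diaphragm protein nephrin, had 0 or 1 counts in a library, and Tcf21 and Ptpro had 0 in all libraries. These defining markers were thus at or near 0. Summed podocyte markers were 3840 to 3880 CPM in the control group and 4590 to 4660 CPM in the IL-12 treatment group. The markers did not move alike. Nes had 609 and 603 CPM in the controls and 1230 and 1240 CPM with IL-12 (log2 fold change 1.02, edgeR adjusted p 1.82e-15), whereas Synpo had 489 and 470 CPM against 302 and 307 CPM (-0.66, adjusted p 3e-11). Summed tubular markers, which were Lrp2 and Cdh16 with Slc34a1 and Umod at 0, were 829 to 866 CPM and 639 to 677 CPM. Macrophage markers ran from 26.6 to 29.1 CPM and 16.1 to 20.3 CPM. Csf1r changed by -0.88 on the log2 scale and Cd68 by 0.07 (edgeR adjusted p 0.823), and Adgre1 had 0 counts. Of the others, endothelial markers, nearly all Ehd3, ran from 10.7 to 11.0 and 9.05 to 9.18 CPM with Emcn at 0. Ehd3 changed by -0.31 on the log2 scale (edgeR adjusted p 0.0807). Mesangial markers ran from 69.6 to 70.6 and 71.1 to 81.8 CPM with Ren1 at 0. Fibroblast markers, nearly all Col1a1, ran from 8.58 to 10.8 and 15.6 to 16.0 CPM. The part of these shifts in the results on collagen chains was not tested. Every library is of the single MPC5 line, so these sums are levels of a few genes and do not count cells of other types. In bulk libraries, a change in some cells of the line and a change in all of them cannot be told apart.

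All 6 chains were detected above the floor and passed the filter on low counts, and they stood at very different levels. Levels of different genes are compared here per length, as the deposited FPKM (fragments per kilobase of gene length, scaled between libraries by the submitters). That scaling is not by total counts alone, and FPKM sums compared between libraries depend on it. In the control libraries Col4a5 was highest at 140 and 136 FPKM, followed by Col4a1 at 89.0 and 89.1 and Col4a2 at 81.5 and 82.5. Far below stood Col4a4 at 1.70 and 1.75 FPKM, Col4a6 at 0.866 and 0.632, and Col4a3 at 0.614 and 0.665. Col4a6 and Col4a3 were the only neighbours in this order whose control values overlapped. Among all genes tested, the 3 abundant chains lay near the top of the control FPKM values (percentile 98.2 for Col4a5, 96.7 for Col4a1 and 96.4 for Col4a2), while Col4a4 lay at 24.5, Col4a6 at 13.8 and Col4a3 at 12.1. With IL-12, Col4a5 at 109 and 114 FPKM and Col4a1 at 107 and 104 moved close together, Col4a2 stood at 92.5 and 90.4, Col4a4 at 5.02 and 5.16, Col4a3 at 1.90 and 1.91, and Col4a6, now lowest, at 0.311 and 0.493.

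**Figure D1:**
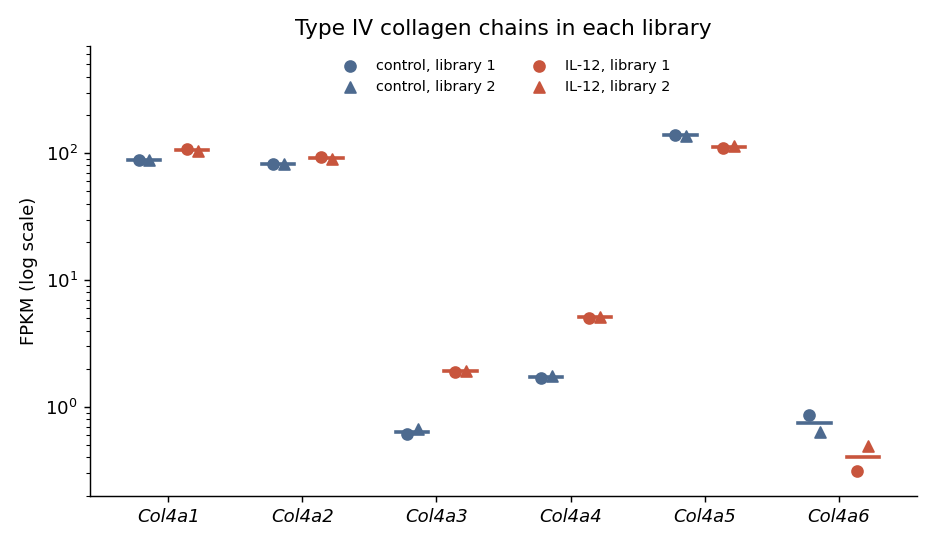
FPKM (log axis) of each type IV collagen chain, with 1 point per library (circle for library 1, triangle for library 2, blue for control, red for IL-12) and a bar at the group mean. Col4a5, Col4a1 and Col4a2 sit near 100 FPKM in both groups, Col4a3 and Col4a4 sit higher with IL-12, and Col4a6 sits below 1 FPKM in every library.

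The comparison of the groups asked how IL-12 changed gene expression in podocytes. By edgeR's quasi-likelihood test all 6 chains passed an adjusted p of 0.05, 4 of them higher and 2 lower with IL-12. Among all 14095 genes tested, 16.1% passed as higher and 14.4% as lower. Genes with more reads pass more readily, and the chains were not matched to all genes by level. At the study's screening limits, an adjusted p below 0.05 together with a change over 2-fold, 2 chains were called, Col4a3 and Col4a4, both higher, and 0 were called lower. The background shares were 0.858% called higher and 0.752% called lower. These shares belong to the present fit, which called 121 genes higher and 106 lower. The study reported fewer genes in each direction at the same limits. In all 6 chains the groups did not overlap, as in 62.9% of all genes tested. The median log2 fold change of the chains was 0.20, beside -0.002 over all genes tested, and it hides a wide range, from -0.91 to 1.57.

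**Figure D2:**
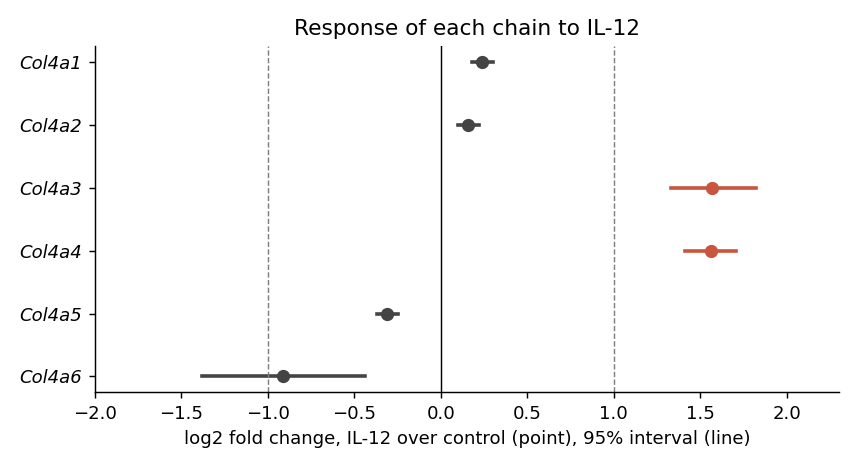
Log2 fold change of IL-12 over control for each chain (point) with its 95% interval (line), from edgeR. Dashed lines mark the 2-fold limits, and the chains called at that limit, Col4a3 at 1.57 and Col4a4 at 1.56, are red.

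Col4a3 and Col4a4, the chains that pair with α5 in the glomerular network, rose close to 3-fold from low levels. The table held 116 and 125 Col4a3 reads for the controls and 375 and 344 after IL-12. Both IL-12 libraries stood far above both controls, and libraries of a group lay within 0.11 of each other on the log2 scale. Mean levels were 6.37 ± 0.354 and 19.0 ± 0.0415 CPM (SD, n = 2 each), a rise of 2.98-fold. Its log2 fold change was 1.57 (SE 0.12, 95% interval 1.33 to 1.82), with an edgeR adjusted p of 6.93e-09. Col4a3 encodes the chain whose NC1 domain carries the Goodpasture antigen.

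For Col4a4 there were 342 and 351 reads in the controls against 1053 and 990 with IL-12. As for its partner, the groups were well separated. Means of 18.3 ± 0.385 and 54.0 ± 1.06 CPM (SD, n = 2 each) gave a rise of 2.94-fold, or 1.56 on the log2 scale (SE 0.07, 95% interval 1.41 to 1.71), with an edgeR adjusted p of 1.14e-11. By p-value Col4a4 ranked 21 and Col4a3 140 among the 14095 genes tested, and both lay at percentile 99.6 of log2 fold change. Both were also called when the test was made against the 2-fold limit itself. On log2(FPKM + 1), where the pseudocount exceeds the control level of Col4a3, its change was 0.83 and it was not called, whereas Col4a4 was called at 1.16. Per length, Col4a4 mRNA exceeded Col4a3 mRNA in every library, with ratios of 2.77 and 2.64 in the control group and 2.64 and 2.70 in the IL-12 treatment group. The groups overlapped in this ratio, and the difference in log2 fold change, Col4a4 minus Col4a3, was -0.02 (SE 0.14, 95% interval -0.30 to 0.27).

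Col4a1 and Col4a2, the chains of the ubiquitous network, rose slightly from high levels. Col4a1 counts were 12603 and 12541 without IL-12 and 15714 and 14062 with it. After scaling for depth these were 665 and 664 CPM against 794 and 777 CPM, so the groups were apart and the controls nearly equal. The means were 665 ± 0.55 CPM and 786 ± 12.1 CPM (SD, n = 2 each). The rise was 1.18-fold, or 0.24 on the log2 scale (SE 0.03, 95% interval 0.18 to 0.30), with an edgeR adjusted p of 1.58e-06. Col4a2 counts were 10235 and 10303 without IL-12 and 12105 and 10817 with it, or 540 and 546 CPM against 612 and 598 CPM. Here the gap between the groups was narrower than for Col4a1, but still wider than that within either group. Means of 543 ± 3.99 CPM and 605 ± 9.89 CPM (SD, n = 2 each) gave a rise of 1.11-fold, or 0.16 on the log2 scale (SE 0.03, 95% interval 0.10 to 0.22), with an edgeR adjusted p of 0.000335. On the deposited FPKM values (log2 with a pseudocount of 1 or 0.1) the Col4a2 change was also 0.16 but the adjusted p from limma was 0.0745 and 0.0904.

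Per length, Col4a1 exceeded Col4a2 by ratios of 1.09 and 1.08 in the control libraries and 1.15 in both IL-12 libraries. The difference in log2 fold change, Col4a1 minus Col4a2, was 0.09 (SE 0.04, 95% interval 0.00273 to 0.17). This interval barely cleared 0, and it included 0 in all 6 alternatives run for it.

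Col4a5, the most abundant chain and a part of both the glomerular and the Bowman's capsule networks, fell. Counts were 17804 and 17194 for the controls and 14481 and 13812 after IL-12, or 940 and 911 CPM against 732 and 763 CPM. Both IL-12 libraries lay below both controls. The mean fell from 925 ± 20.3 CPM to 748 ± 22.2 CPM (SD, n = 2 each), to 0.808 of the control level. This was -0.31 on the log2 scale (SE 0.03, 95% interval -0.37 to -0.25), with an edgeR adjusted p of 1.6e-07. Since Col4a5 stood so high, this modest relative change was a difference in means of -26.3 FPKM, whereas the rise of Col4a4 was 3.36 FPKM and that of Col4a3 1.27 FPKM.

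Col4a6 was scarce and its estimate was the least precise of the 6. The controls had 131 and 95 reads and the IL-12 libraries 49 and 71. The groups were separate, but libraries of a group differed by 0.46 (control) and 0.66 (IL-12) on the log2 scale. Means were 5.97 ± 1.33 and 3.20 ± 1.02 CPM (SD, n = 2 each), and the fitted fall was to 0.532 of the control level, or -0.91 on the log2 scale (SE 0.22, 95% interval -1.38 to -0.44), with an edgeR adjusted p of 0.00401. Without IL-12 library 1, the lowest of the 4, it was -0.60 and no longer passed the adjusted p, so passing rests on that library. Leaving out either library 2 carried Col4a6 past the 2-fold limit, with -1.12 without control library 2 and -1.27 without IL-12 library 2.

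The ratio of Col4a5 to Col4a6 per length was 161 and 215 in the controls, against 351 and 231 with IL-12. The difference in log2 fold change, Col4a5 minus Col4a6, was 0.60 (SE 0.22, 95% interval 0.13 to 1.07). In 3 of 6 alternatives this interval included 0. For the 3 head-to-head pairs together, exact two-sided permutation tests of the log2 ratio over the 4 libraries gave p = 0.333 for Col4a1/Col4a2, p = 1.0 for Col4a4/Col4a3 and p = 0.333 for Col4a5/Col4a6. After Benjamini-Hochberg adjustment over these 3 these were 0.5, 1.0 and 0.5. With 2 libraries against 2 such a test cannot go below 0.333.

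**Figure D3:**
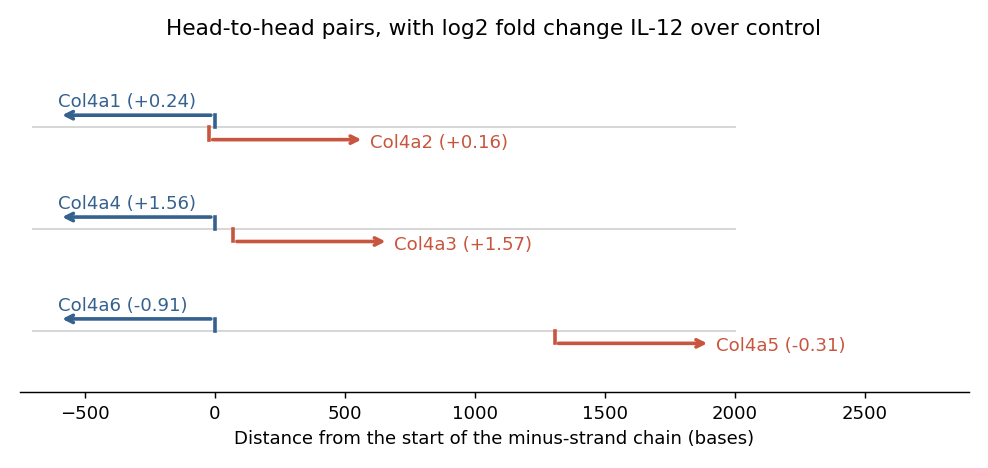
Arrangement of the 3 head-to-head pairs, drawn to scale as distance in bases from the start of the minus-strand chain, with blue arrows for minus-strand and red arrows for plus-strand transcription and the log2 fold change of IL-12 over control in brackets. Partners moved in the same direction in each pair, with 1.56 and 1.57 for Col4a4 and Col4a3, 0.24 and 0.16 for Col4a1 and Col4a2, and -0.91 and -0.31 for Col4a6 and Col4a5.

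Within the mRNA pool of the 6 chains, IL-12 went with a larger share of α1 and α2 and a smaller share of α5. Counts per kilobase were summed over the 6 chains in each library. Col4a1 and Col4a2 together made up 54.4% and 55.3% of the pool in the control libraries and 63.1% and 61.6% with IL-12. Col4a5 and Col4a6 together took 44.9% and 43.9% in the control libraries and 34.7% and 36.2% with IL-12, nearly all of it Col4a5. The share of Col4a3 and Col4a4 was 0.738% and 0.779% in the control libraries and 2.20% and 2.24% with IL-12. The groups did not overlap in any of these shares.

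The 3 genes of the glomerular network, Col4a3, Col4a4 and Col4a5, together made up 45.3% and 44.5% of the pool in the control libraries and 36.8% and 38.2% with IL-12. Nearly all of this was Col4a5, with means of 44.1% in the controls and 35.3% with IL-12. The means for all 3 genes were 44.9% and 37.5%, a difference of -7.40 percentage points, although Col4a3 and Col4a4 rose. The exact two-sided permutation p was 0.333, the smallest that 4 libraries can give. Across the other length corrections and with each library left out, the difference ran from -8.13 to -6.67 points. The summed level of the 6 chains was 314 and 310 FPKM in the control libraries and 315 and 316 FPKM with IL-12, a ratio of 1.01 between means of 312 ± 2.21 and 316 ± 0.458 FPKM (SD, n = 2 each; exact two-sided permutation p = 0.333).

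Col4a3 and Col4a4 remained minor beside Col4a5, their partner in the trimer. Per length, the ratio of Col4a5 to Col4a3 was 228 and 204 in the control libraries and 57.3 and 59.6 with IL-12. The ratio of Col4a5 to Col4a4 was 82.2 and 77.4 in the control libraries and 21.7 and 22.0 with IL-12. The differences in log2 fold change were -1.88 (SE 0.12, 95% interval -2.13 to -1.63) and -1.87 (SE 0.08, 95% interval -2.03 to -1.71). That of Col4a1 to Col4a3 went from 145 and 134 to 56.0 and 54.6. These are mRNA levels, and no protein or assembled network was measured here.

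**Figure D4:**
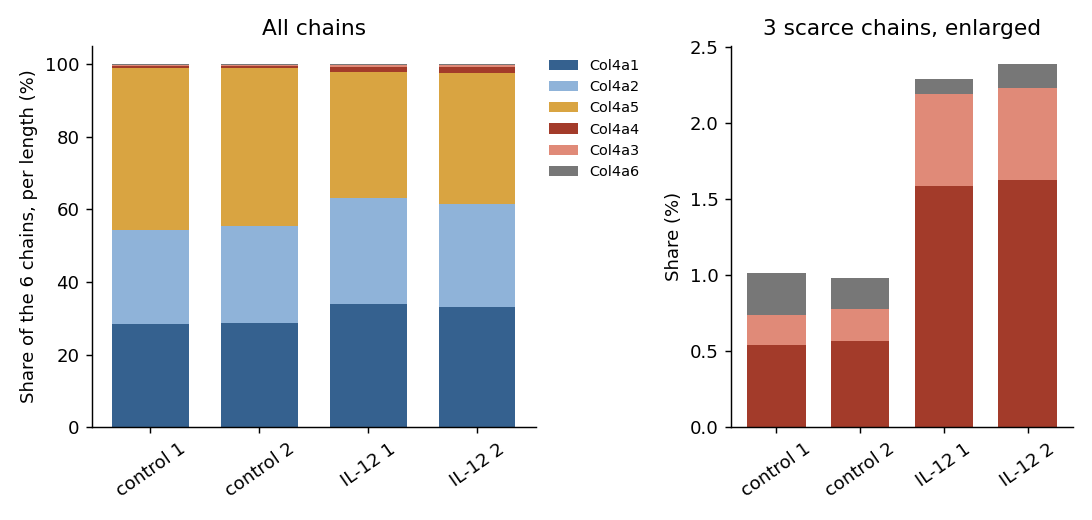
Share of each chain in the per-length mRNA pool of the 6 chains (%, stacked bars, 1 bar per library), with all chains on the left and the 3 scarce chains on an enlarged axis on the right. The Col4a5 segment is shorter in both IL-12 libraries, and Col4a3 with Col4a4 take 2.20% and 2.24% there against 0.738% and 0.779% in the controls.

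The genes that process, crosslink, bind and degrade type IV collagen were read from 6 lists holding 82 genes, of which 60 were tested. By edgeR's test 25 were higher and 16 lower at an adjusted p of 0.05, together 68.3% of those tested. The shares of all genes were 16.1% and 14.4%. Genes with more reads pass more readily at any fold change, and the lists were not matched to all genes by level. The study drew attention to some of the list genes in the same libraries, so their counts are not independent evidence of direction. At the 2-fold limit 4 were called higher, Itgb3, Cd44, Mmp10 and Mmp9, and 0 lower. Most changes were smaller than those of Col4a3 and Col4a4, and the median over the 60 genes was 0.07.

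Genes of collagen synthesis and secretion numbered 24, with 22 tested, 10 higher, 3 lower and a median of 0.10. P3h2, a prolyl 3-hydroxylase that acts on type IV collagen, fell from 93.1 ± 6.00 to 47.3 ± 2.95 CPM (SD, n = 2 each), which was -0.98 on the log2 scale (SE 0.06, edgeR adjusted p 5.14e-10). P4ha2, a catalytic subunit of prolyl 4-hydroxylase, changed by -0.37 (SE 0.06, adjusted p 0.000156), and P4ha1 by -0.15. Sec24d, a coat component of the vesicles that carry procollagen from the endoplasmic reticulum, rose by 0.38 (SE 0.05, adjusted p 3.77e-06). The other genes that rose did so by 0.10 to 0.26, among them Serpinh1, the collagen chaperone, at 0.10 and Colgalt1, a collagen galactosyltransferase, at 0.26. P4ha1, Serpinh1 and Colgalt1 were picked after their values were seen.

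Of 7 genes that crosslink the network, 6 were tested, with 2 higher, 1 lower and a median of 0.08. Lox, a lysyl oxidase, rose from 7.11 ± 0.131 to 10.8 ± 0.847 CPM (SD, n = 2 each), or by 0.61 (SE 0.13, edgeR adjusted p 0.00168). Pxdn, the peroxidase that forms the sulfilimine bonds between NC1 domains, rose by 0.09 (SE 0.03, adjusted p 0.0218), and Tgm2, a transglutaminase, changed by -0.24 (SE 0.06, adjusted p 0.00399).

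Of 13 receptor genes 9 were tested, with 6 higher, 2 lower and a median of 0.25. Itgb3, the integrin β3 subunit, had 4.22 and 4.77 CPM in the control libraries and 10.1 and 8.95 CPM with IL-12, a log2 fold change of 1.09 (SE 0.15, edgeR adjusted p 2.16e-05). Cd44, a receptor better known for binding hyaluronan, had 177 and 174 CPM against 365 and 366 CPM, a change of 1.06 (SE 0.03, adjusted p 5.94e-14). Itga1, the α subunit of the collagen-binding integrin α1β1, fell from 119 ± 5.18 to 69.8 ± 6.02 CPM (SD, n = 2 each). This was -0.77 on the log2 scale (SE 0.06, adjusted p 6.66e-09). Itgb1, which encodes its β subunit, rose by 0.41 (SE 0.02, adjusted p 9.98e-11). Ddr1, a receptor tyrosine kinase for collagen, changed by -0.67 (SE 0.03, adjusted p 1.51e-11). Itgb1 and Ddr1 were picked after their values were seen.

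Other components of the basement membrane went mostly down. Of 16 genes, 11 were tested, with 2 higher, 8 lower and a median of -0.13. Fras1, an extracellular matrix protein of developing epithelia, changed by -0.74 (SE 0.10, edgeR adjusted p 8.29e-06) and Nid2, a nidogen that links laminin to type IV collagen, by -0.72 (SE 0.10, adjusted p 1.24e-05). Lamb2, the laminin β2 chain of the mature glomerular basement membrane, fell from 327 ± 7.45 to 254 ± 10.1 CPM (SD, n = 2 each), or -0.37 on the log2 scale (SE 0.04, adjusted p 2.82e-07). The genes that rose were Tinagl1 at 0.19 and Lamb1 at 0.11, which encodes the β1 laminin chain, and both were picked after their values were seen.

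Among 13 proteinases that cleave type IV collagen and their inhibitors 7 were tested, with 4 higher, 1 lower and a median of 0.21. Mmp10, a stromelysin, had 2.06 and 1.80 CPM in the control libraries and 10.4 and 9.67 CPM with IL-12, a log2 fold change of 2.38 (SE 0.18, edgeR adjusted p 8.57e-09). Mmp9, a gelatinase that degrades type IV collagen, had 5.60 and 5.78 CPM against 16.5 and 14.3 CPM, a change of 1.44 (SE 0.13, adjusted p 1.01e-07). Their inhibitor Timp1 rose from 31.4 ± 0.458 to 55.5 ± 2.69 CPM (SD, n = 2 each), or by 0.82 (SE 0.06, adjusted p 1.64e-08). Mmp2, the other gelatinase, picked after its value was seen, stood at 0.06 and did not pass the test.

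Of 9 transcription factors linked to type IV collagen genes 5 were tested, with 1 higher, 1 lower and a median of -0.07. Smad3, a mediator of TGF-β signaling, changed by -0.24 on the log2 scale (SE 0.04, edgeR adjusted p 4.52e-05). Lmx1b, a podocyte factor whose loss lowers Col4a3 and Col4a4 in mice, had 0 to 3 counts per library and was not tested.

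**Figure D5:**
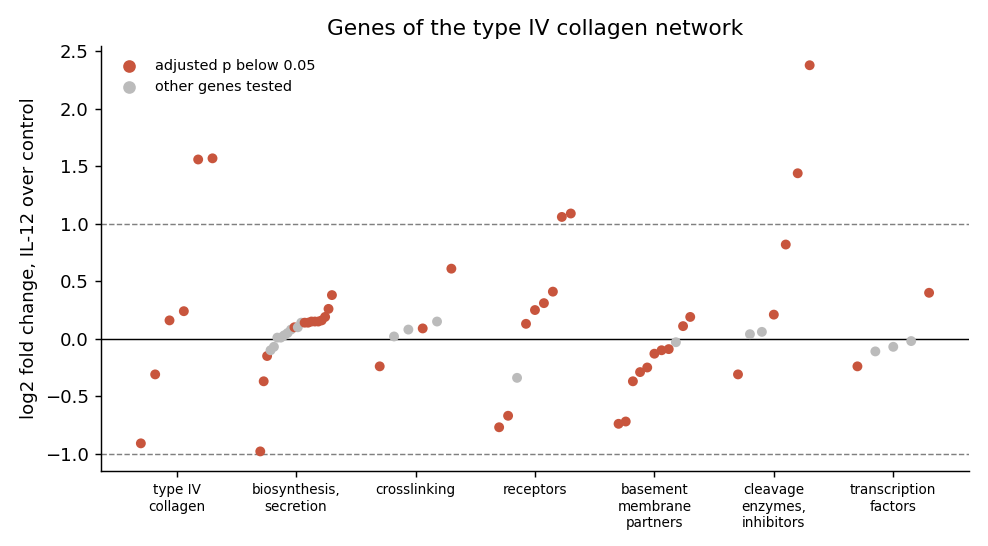
Log2 fold change of IL-12 over control for the type IV collagen chains and for each tested gene of the 6 lists (1 point per gene, red where the edgeR adjusted p was below 0.05, grey otherwise), with dashed lines at the 2-fold limits. The highest points are Mmp10 at 2.38, then Col4a3 and Col4a4, and most genes of synthesis and crosslinking lie near 0.

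Genes with the profile most like the mean profile of each pair were taken by Euclidean distance over the 4 libraries. Profiles were log2(CPM + 0.1) centred on each gene's own mean. With a distance over only 4 libraries this describes shape and nothing more. Nearest to Col4a3 and Col4a4 were the lincRNA Gm14005 (distance 0.0351, log2 fold change 1.59), Ctgf (0.0447, 1.55), which encodes connective tissue growth factor, and Prkg2 (0.0829, 1.53). Nearest to Col4a1 and Col4a2 were Calr (0.00773, 0.20), which encodes the chaperone calreticulin, Rad23b (0.00884, 0.20) and Slc7a6os (0.00898, 0.19). Nearest to the mean of Col4a5 and Col4a6 were Mmp23 (0.0543, -0.58), Car7 (0.0715, -0.62) and Gm43759 (0.0735, -0.67), none of which passed an adjusted p of 0.05. Col4a5 changed by -0.31 and Col4a6 by -0.91, so this mean lies between them and matches neither chain.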

How the data were processed

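RNA of 4 MPC5 libraries, 2 control and 2 IL-12, was analysed. The dose and the saline control came from the study's methods. The authors deposited unnormalized whole-number counts for each gene and FPKM values made from the same counts and the gene lengths in the table. The submitters' processing notes name HISAT2, StringTie and mm9, without roles or versions. The deposited coordinates equal those of GENCODE M21 (GRCm38) for 98.3% of 54495 shared genes, so GRCm38 was used. How reads matching several genes were counted is not given in the sources used here. Only mRNA was measured, and steps before the counts could not be varied.

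Counts were filtered with edgeR 4.0.16 (filterByExpr, minimum 10 counts and 15 in total), which left 14095 genes, and scaled by TMM. Groups were compared by its quasi-likelihood test, without a block, and p-values were adjusted by Benjamini-Hochberg over all genes. A gene was called at an adjusted p below 0.05 and over 2-fold. R was 4.3.3 and Python 3.11.15. The interval of a difference between chains used both standard errors as if independent. Total counts of 18355379 to 20098012 set the precision.

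Same-numbered libraries shared only a number from the labels. Alternatives were DESeq2 1.42.0, limma 3.58.1 (voom, and log2(FPKM + 1) or log2(FPKM + 0.1)), other scalings and filters, a test against the 2-fold limit, a replicate block and each library left out. With 1 library left in an arm, it was taken to vary like the other group.

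The members, lists and tests were chosen with earlier results of these data known. Besides the chains, the named genes are, in each list, those called and the 3 largest changes past the adjusted p, genes overlapping a member, and the 3 nearest profiles per pair among genes of at least 1 CPM. Genes outside this rule are said to have been picked after their values were seen, apart from markers and untested list genes. Some genes that the rule or the marker lists hold are not reported here.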

Additional observations from a re-analysis of the deposited data

How the results depend on the processing

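All 6 chains kept their direction under every alternative that gave a value. Col4a6 had none on FPKM, where it fell under the filter. On FPKM, chains past the adjusted p numbered 4 with either pseudocount, since Col4a2 (0.16) was lost with adjusted p values of 0.0745 and 0.0904. Without IL-12 library 1, 5 chains passed, since Col4a6 was -0.60 with an adjusted p of 0.149. Chains called at the 2-fold limit numbered 1 with log2(FPKM + 1), where Col4a3 was 0.83, and 2 to 3 with a library left out. Leaving out a library moved Col4a1 between 0.23 and 0.26, Col4a2 between 0.14 and 0.17, Col4a3 between 1.52 and 1.63, Col4a4 between 1.54 and 1.58, Col4a5 between -0.34 and -0.28 and Col4a6 between -1.27 and -0.60. The Col4a1 minus Col4a2 difference, 0.09 by DESeq2 and under the replicate block and 0.08 to 0.09 with a library left out, had an interval including 0 each time. That of Col4a5 minus Col4a6 did so by DESeq2 (0.60), without control library 1 (0.38) and without IL-12 library 1 (0.33), within a range of 0.33 to 0.93. The cause was not tested.

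Genes called at the 2-fold limit, 227 of 14095, numbered 103 by DESeq2, 39 against the limit itself, 56 and 100 on FPKM with pseudocounts of 1 and 0.1, and 144 to 254 with a library left out. Those past the adjusted p, 4297, numbered 2705 by DESeq2, 2147 and 1751 on FPKM, and 2528 to 3722 with a library left out. With total counts as the scaling, 40.5% of genes past the adjusted p were higher, against 52.8% with TMM. The median of all genes moved by -0.041, and Col4a1, Col4a2 and Col4a5 stood at 0.20, 0.11 and -0.35. With the replicate number as a block, the chains' changes were 0.24, 0.16, 1.57, 1.56, -0.31 and -0.91, and 6 passed and 2 were called, as without it. Across all genes 241 were called. Same-numbered libraries had a correlation of -0.0267 in their deviations over 14095 genes. This gave no sign of pairing but cannot exclude it, since counting noise in scarce genes also lowers the correlation. The crosslinking list had 1 gene past the adjusted p without IL-12 library 1, and the transcription factor list 1 by DESeq2, without control library 1 and without IL-12 library 2.

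With 2 libraries per group, all p-values lean on the spread shared across genes. Col4a6 and Col4a3 rest on the fewest counts.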
